A study of Homo sapiens with 4 samples.

Results

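The change of RNA recovery in an RBM39 immunoprecipitate (IP) was followed gene by gene between 2 cultures of Huh7, a cell line established from a human liver tumour (hepatocellular carcinoma). One culture carried a control short hairpin RNA (shControl) and the other a hairpin directed at RBM39 (shRBM39), introduced on a plasmid. Each culture gave 1 input library of total RNA and 1 library of RNA recovered with an antibody against RBM39, so there were 4 libraries and 1 per group. Recovery is the log2 ratio of IP over input within a culture, after scaling of the library sizes. The difference is recovery in shRBM39 minus recovery in shControl. Members are the 12957 of 56303 features in the count table that had at least 50 counts in each of the 4 libraries. They are 23.0% of the features and hold 99.1% to 99.3% of the counts.

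RBM39 is an RNA-binding protein of the nucleus with an arginine- and serine-rich domain, related to the large subunit of the splicing factor U2AF. It takes part in pre-mRNA splicing together with U2 snRNP proteins and SR proteins. In RNA immunoprecipitation a protein is pulled down from a cell lysate with an antibody and the RNA that comes with it is sequenced. RNA can be bound by the protein, by its partners, by the beads, or travel with a larger particle or cell fragment, and the ratio over input does not separate these.

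Total counts ran from 20858382 to 45812488 per library, with both IPs deeper than the inputs. With 1 library per group there was no replicate, so no test was run and every interval below is a 95% interval of counting error. No IP with a control antibody was analysed here. Where 4 values stand in a row, they are the input and IP of shControl followed by the input and IP of shRBM39. Levels in CPM are counts scaled to a common library size. The inputs held 8701 (shControl) and 8053 (shRBM39) counts of RBM39, the targeted transcript, a log2 ratio of -0.13. The label shRBM39 was therefore hardly reflected in the input RNA, and shRBM39 below means the libraries labelled so. The protein level was not analysed here. All 10 hepatocyte markers passed the count minimum. Of 21 markers of other cell types, 3 did so, 9 stayed under 10 counts in every library and 3 of those were at 0 everywhere. The summed level of these 21 markers was 58.0, 44.6, 55.6 and 30.4 CPM.

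For most transcripts the recovery was alike in both cultures. The median difference over the members was -0.02 with an SD across genes of 0.40, and 82.4% of the members lay within 0.5 of 0 on the log2 scale. Leaving out 5% of the members at either end, the differences ran from -0.62 to 0.62. A member was called when its difference was at least 1 in size (2-fold) and the counting interval excluded 0. With at least 50 counts in every library, any member past 2-fold meets the interval condition. The 2-fold threshold alone therefore set the calls among members. By this rule 181 members (1.4%) were higher in shRBM39 and 101 (0.78%) were lower, 2.18% in either direction. Over the wider set of 19210 features that reached 10 counts in 2 libraries or more, the same rule called 4.39% higher, 2.74% lower and 7.13% in either direction, so shallow features passed more often. The extremes were unequal in size: the highest difference was 4.07 for LMO7 and, among members with a gene symbol, the lowest was -1.47 for AADAC. Libraries were scaled with TMM, a trimmed mean of log ratios that limits the pull of a few abundant genes. With scaling to total counts instead, every difference falls by 0.19 and the split becomes 104 higher and 250 lower. The shift is the same for every member. All 104 were therefore also called higher with TMM, and all 101 members that were lower with TMM stayed among the 250.

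**Figure D1:**
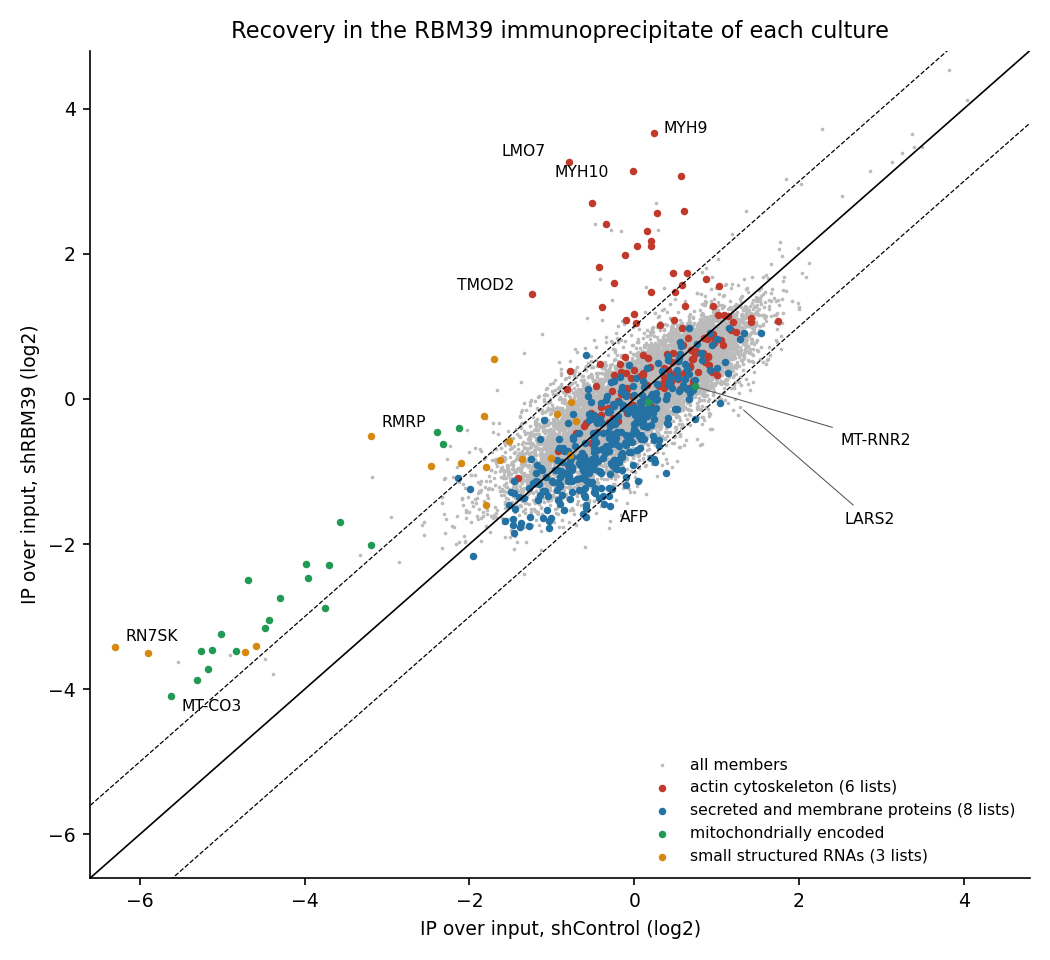
Recovery (IP over input, log2) in shControl on the horizontal axis and in shRBM39 on the vertical axis, 1 point per member, with equality as a solid line and 2-fold differences as dashed lines. Actin-associated genes such as LMO7, within 2-fold of input in shControl, rise above the cloud. Mitochondrial mRNAs and RNAs such as RN7SK lie above the line at strongly negative recoveries, and genes of secreted and membrane proteins such as AFP lie mostly below the line.

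The members were also sorted by their recovery in each culture, as at least 2-fold above input, at least 2-fold below input, or between. The class between in both cultures held 10659 members (82.3%), with 49 higher and 43 lower calls. Another 184 members were between in shControl and above input in shRBM39, and 40 of them were called higher, led by LMO7, MYH9, LIMCH1 and MYH10. Of the 474 members that went from below input to between, 58 were called higher, among them RMRP, SCARNA10, SYNE2 and EEF1A1P5. The 416 members below input in both cultures included 29 higher calls, with RN7SK, RPPH1, MIR3609 and MTATP6P1 at their head. In the other direction, 26 of the 620 members that went from above input to between were called lower, led by LARS2, RBX1, POR and SDSL. A further 31 of the 314 members that went from between to below input were called lower, led by AADAC, A1BG, PRNP and HACD1.

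One member, TMOD2, passed from at least 2-fold below input to at least 2-fold above it. TMOD2 encodes a tropomodulin, a cap of the slow-growing end of actin filaments. Its counts were 156, 138, 58 and 304. Its recovery was -1.24 in shControl and 1.45 in shRBM39, a difference of 2.70 (2.17 to 3.22). The input was lower in shRBM39 by a log2 ratio of -1.43 and the IP higher by 1.26, so both parts contributed.

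A difference of recovery can come from the IP, from the input or from both, and the 2 parts were taken apart. Among the 181 higher members, the IP was at least 2-fold higher in shRBM39 while the input moved less than 2-fold downward in 100, the input alone was at least 2-fold lower in 12, both passed 2-fold in 2 (TMOD2 and RMRP), and neither did in 67. The IP part was the larger in 134. In 74 higher members the input moved the same way as the IP. In 11 of the 181, LMO7, MYH9, CGN and SVIL included, the input itself was at least 2-fold higher. Among the 101 lower members the IP was at least 2-fold lower in 31, the input alone was at least 2-fold higher in 10, both passed in 0 and neither in 60. The 10 include AADAC, LINC01057, ABCB1 and CES1. The IP part was the larger in 66, and the input moved the same way as the IP in 21. The 4 highest members with a symbol, LMO7, MYH9, LIMCH1 and MYH10, had a higher IP and a higher input, while TMOD2 and RMRP had an input part larger than the IP part. Most lower calls were the sum of an IP part and an input part that were each under 2-fold.

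**Figure D2:**
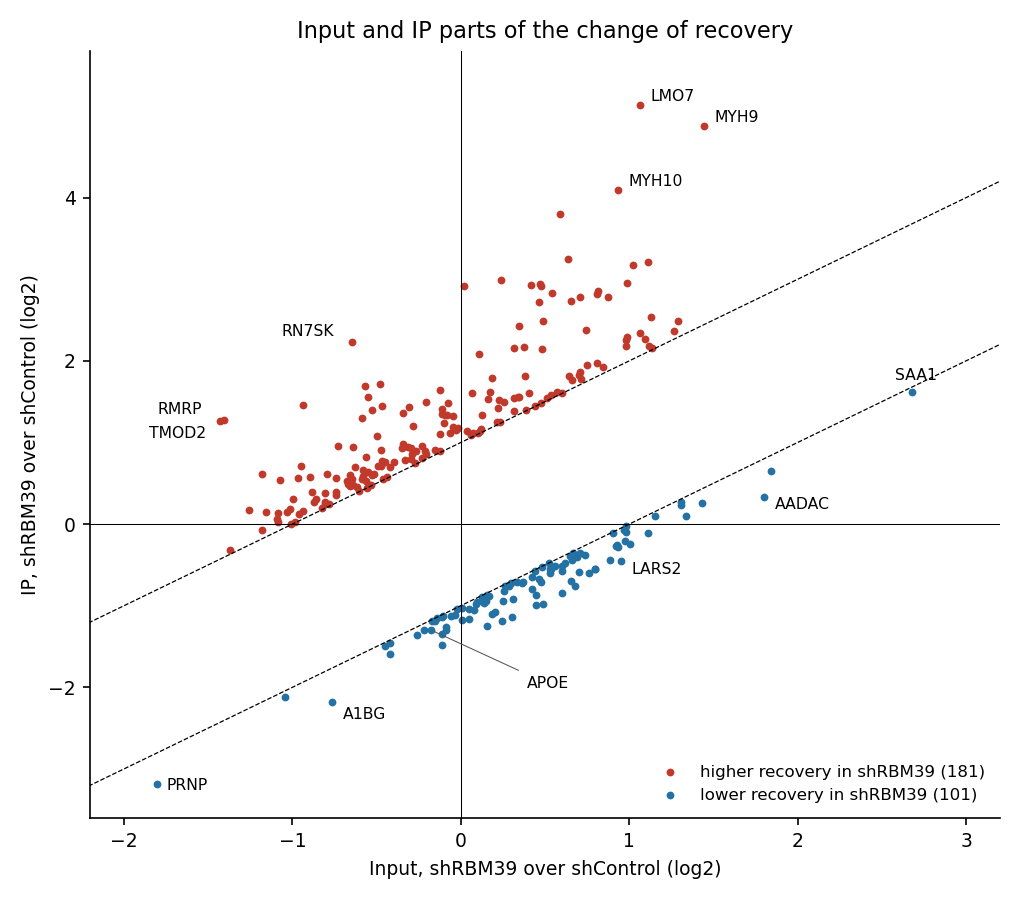
Log2 ratio of shRBM39 over shControl in the input (horizontal) and in the IP (vertical) for the 282 called members, with 181 higher in red, 101 lower in blue and dashed lines at a 2-fold difference of recovery. LMO7, MYH9 and MYH10 lie high on the right, where both IP and input were higher, RN7SK, RMRP and TMOD2 lie to the left, where the input was lower, and AADAC lies on the right at an IP ratio of 0.33.

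Genes of the actin cytoskeleton led the higher calls. In non-muscle cells myosin II motors pull on actin filaments, tropomodulins and tropomyosins stabilise them, LIM domain and crosslinking proteins tie them to each other and to junctions, and spectrins attach them to the membrane. Of 140 members in 6 lists of such genes, 24 were called higher and 0 lower, against 1.4% higher among all members. Of the 15 highest members with a gene symbol, 10 are in these lists. The lists were drawn up knowing that actin-associated genes were among the highest, so this count describes them and is no independent evidence. The median over the 140 was 0.14, beside -0.02 over all members. With total counts, which shift every member alike, these medians were -0.06 and -0.22. The higher values were thus those of a minority of large steps, and 20 of the 24 kept their call with total counts.

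The non-muscle myosin II heavy chains form the motor part of contractile actomyosin. MYH9 (chromosome 22, 36281280 to 36387967 on GRCh38) had 14497, 35753, 39837 and 959474 counts. In scaled terms these were 672, 791, 1830 and 23159 CPM. Only the shRBM39 IP stood far from the rest, although the input was also 2.72 times higher in shRBM39. MYH10 (chromosome 17, 8474212 to 8630725) stood at 487, 483, 931 and 8260 CPM. MYH14 (chromosome 19, 50203622 to 50310540) stood at 146, 216, 195 and 1636 CPM. The IP ratio between the cultures was 29.3-fold for MYH9, 17.1-fold for MYH10 and 7.59-fold for MYH14, and the differences of recovery were 3.43, 3.16 and 2.51. Together the 3 mRNAs took 0.135%, 0.163%, 0.289% and 2.99% of the counts of the 4 libraries.

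Other genes of the myosin II list did not follow. The list holds the heavy chains, light chains and the kinases and phosphatase subunits that control them, and besides the 3 heavy chains its 18 members lay between -0.24 and 0.41. The light chain MYL6 had 21630, 65309, 27000 and 73799 counts and a difference of -0.00. Its partner MYL12A was at -0.13, and the kinase MYLK at 0.41. NDEL1, a dynein regulator whose annotated span overlaps the end of MYH10, was called higher at 2.08 with 27826 counts in the shRBM39 IP against 5648 in the shControl IP. Reads of MYH10 and NDEL1 at the overlap may not be separable in these counts.

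All 3 measured tropomodulins were higher and the 4 tropomyosins were not. TMOD3 (chromosome 15, 51829653 to 51915725) stood at 135, 106, 159 and 847 CPM, so its input was nearly level and its IP was 7.97 times higher. Its difference was 2.76 (2.67 to 2.84). TMOD1 had 83, 211, 122 and 1373 counts, with a wide interval of 1.83 to 2.74 around 2.29. Tropomyosins, which lie along the filament that tropomodulins cap, gave -0.24 for TPM2, 0.04 for TPM3, 0.19 for TPM1 and 0.33 for TPM4. TPM3 had 36231, 84875, 39139 and 85298 counts, and its interval of 0.01 to 0.06 lay far below that of TMOD3.

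Among 25 genes of actin-bound LIM domain proteins 4 were higher, with a median of 0.07 over the list. LMO7, a protein of cell junctions, had the largest difference of all members. Its counts were 2904, 3505, 6133 and 112482, and the shRBM39 IP alone was far above the rest. Its recovery passed from -0.80 to 3.27, and the IP was 35-fold higher against 2.09-fold in the input. LIMCH1, an activator of myosin II, had 222, 327, 337 and 4188 counts and a difference of 3.22 (2.92 to 3.51). MICAL3, an enzyme that oxidises actin, followed at 1.9 and LIMA1, which bundles filaments, at 1.03; with total counts LIMA1 fell below the threshold at 0.83. The other 21 lay between -0.35 and 0.69.

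The crosslinkers and spectrins had 12 calls among 37 members (10 with total counts) and a median of 0.37. The spectrins make the meshwork under the plasma membrane. SPTBN1 stood at 785, 904, 1552 and 7026 CPM, with a difference of 1.98 (1.94 to 2.01). SPTAN1, its alpha partner, was at 1.85. Of the other crosslinkers, UTRN (utrophin) was at 2.25, CGN (cingulin, a tight junction protein) at 2.15, SVIL (supervillin) at 2.10, the scaffold IQGAP1 at 2.07, and DBN1 (drebrin) at 1.99. DBN1 had 10275, 32619, 14565 and 167162 counts. Of this list CGN, SVIL, CGNL1 (1.20) and PLEC (1.27) also had at least 2-fold more input RNA in shRBM39.

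Family members differed in this list. The filamin FLNA had 762, 3263, 1817 and 10165 counts and a difference of 0.53, with an IP ratio of 1.77 and an input ratio of 1.24. The alpha-actinins ACTN1 and ACTN4 fell just short or short of 2-fold at 0.99 and 0.79, although the ACTN4 IP was 2.33 higher on the log2 scale, since its input was 1.54 higher. IQGAP2 and IQGAP3 had differences of -0.13 and -0.09, beside 2.07 for IQGAP1. The plakins, giant linkers of filament systems, gave 1.27 for PLEC, 1.17 for DST and 0.59 for MACF1, and outside the list 1.41 for PPL and 1.07 for EPPK1. EPPK1 rests on 50 counts in the shControl input, and its interval runs from 0.50 to 1.63.

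Of 15 unconventional myosins, which move cargo or tension on actin, MYO6 (1.66) and MYO18B (1.17) were higher. MYO6 had 1837, 2936, 2590 and 11881 counts. MYO5A (0.90), MYO5B (0.71) and MYO18A (0.62) were above the median of the members without reaching 2-fold. With total counts MYO18B dropped to 0.98. Actin itself and the nucleation and capping factors listed with it had no call: the 35 members of that list had a median of -0.12. The tropomodulins, which also cap filaments, are in the list described above. ACTB had 48838, 175353, 57324 and 141088 counts, a recovery of 0.78 in shControl and 0.37 in shRBM39, and a difference of -0.40. ACTG1 was lower still at -0.67, and villin (VIL1) was the highest of this list at 0.97.

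Some called members outside these lists encode large proteins known to bind actin, spectrin or myosin. Picked from the calls after their values were seen, they are examples, and uncalled genes of this kind were not counted. They were AHNAK (2.44), a giant scaffold, SYNE2 (2.01), which links the nucleus to actin, ANK3 (1.31), an ankyrin that anchors spectrin, and MPRIP, which targets the myosin phosphatase and was just past 2-fold, a call it lost with total counts. AHNAK had 1295, 3259, 1816 and 22472 counts. SYNE2 had 725, 702, 1282 and 4527 counts and was below input in shControl at -1.11 and above it in shRBM39 at 0.89. In contrast, 23 focal adhesion adaptors (median -0.03), 38 kinesins and dyneins (0.01), and 10 intermediate filament and lamin genes (-0.19) had no call. The intermediate filament and lamin genes were higher in the shRBM39 input by a median of 1.18 and in the IP by 1.04. Of these 10 genes 8 lay below the median difference of all members.

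**Figure D3:**
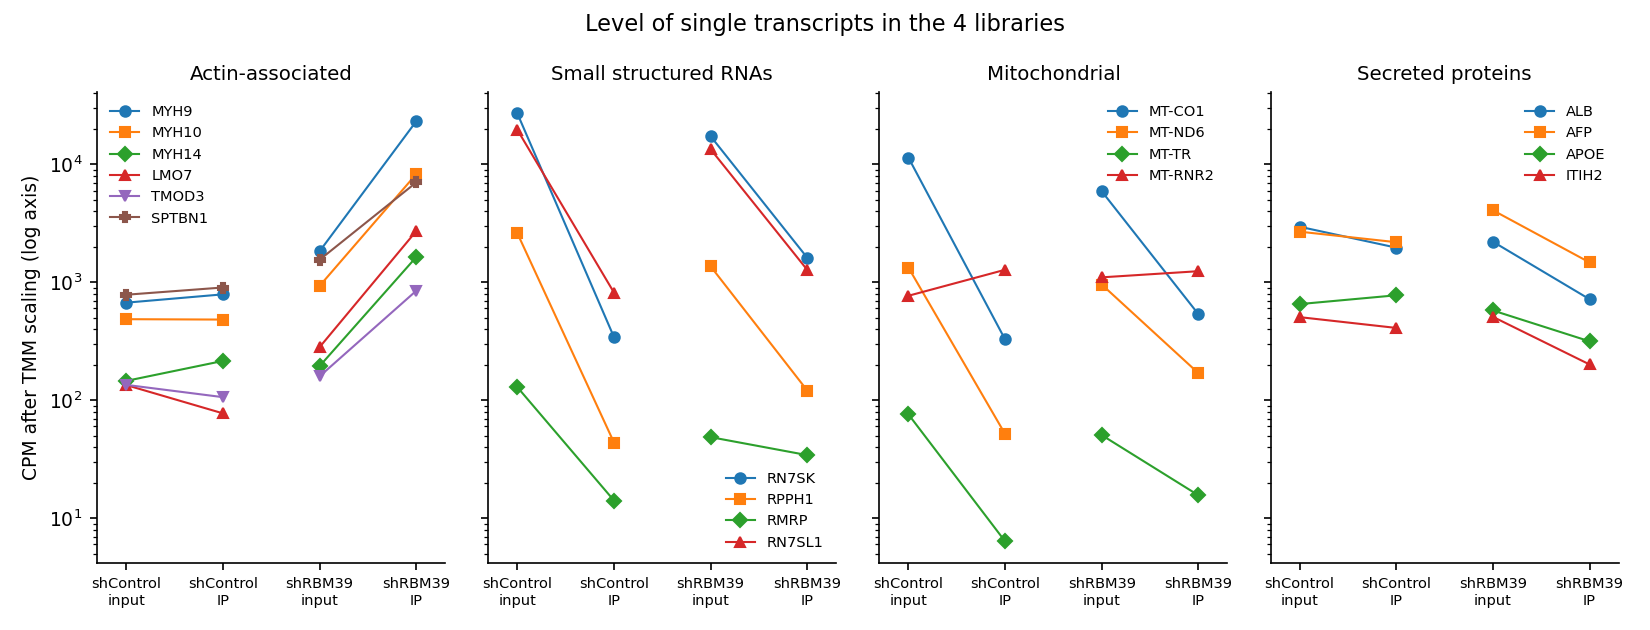
Level in CPM after TMM scaling (log axis) in the 4 libraries, with 1 line per gene joining the input to the IP of the same culture. The 6 actin-associated mRNAs change less than 2-fold from input to IP in shControl and climb in shRBM39. RN7SK and the mitochondrial mRNAs fall less steeply in shRBM39, MT-RNR2 is nearly level, and the 4 mRNAs of secreted proteins fall more steeply in shRBM39.

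The most abundant small structured RNAs were below input in both IPs and less so in shRBM39. The list of 5 abundant RNAs made by RNA polymerase III had all 5 members higher, with a median of 2.4. RN7SK, the scaffold of the complex that holds the elongation factor P-TEFb inactive (chromosome 6, 52995620 to 52995951), had 583158, 15510, 376396 and 66820 counts. It went from 0.0127 times its input to 0.0933 times. RPPH1, the RNA of RNase P, had 56310, 1982, 29698 and 5003 counts and a difference of 2.4. RMRP, the RNA of RNase MRP, had 2788, 639, 1060 and 1420 counts and came closest to its input, at -0.51. RN7SL1 and RN7SL2, near-identical copies of the signal recognition particle RNA whose reads may be split between them, were at 1.19 and 1.24. With total counts RN7SL1 lost its call and the other 4 kept theirs.

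In each of these 5 RNAs the input was lower in the shRBM39 culture as well, by log2 ratios from -0.47 (RN7SL2) to -1.41 (RMRP). The IP was higher in each, from 0.64 for RN7SL1 to 2.23 for RN7SK. For RMRP the input part, 1.41, was larger than the IP part, 1.28. Over the 19 members of 3 lists of small structured RNAs, 9 were higher and 0 lower, the median difference was 0.93, and the median input ratio was -0.46. These RNAs took 7.03% and 4.46% of the counts of the shControl and shRBM39 inputs, and 0.214% and 0.389% of the IPs.

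The smaller nuclear RNAs had fewer calls, all of them higher. Of the minor spliceosome RNAs, RNU11 had 267, 158, 173 and 280 counts and a difference of 1.59 (1.19 to 1.98), and RNU12 was at 0.74 (0.20 to 1.27). Of 12 small nucleolar and Cajal body RNAs 3 were higher: SCARNA10 (2.26), SCARNA17 (1.54) and SNORD86 (1.22). The 12 ranged upward from 0.01. SCARNA10 lies within NCAPD2, SNORD86 within NOP56 and SCARNA17 within SNHG22, so their counts can include reads of the host. SNHG22 itself was at 1.38 and SNHG5 at 1.01, the called members of 17 snoRNA host genes (median 0.23); SNHG5 had an IP ratio of 0.02 and an input ratio of -0.99, so its difference lay in the input, and it lost its call with total counts (0.81). Telomerase RNA (TERC) was at 0.93. Of 11 features annotated as microRNA genes, MIR3609 was called higher at 2.11 on 62 to 270 counts, and it lies within TRRAP. The median of the 11 was 0.30. None of 20 abundant long non-coding RNAs was called, and HULC, a liver RNA, was nearest at 0.99.

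Messenger and transfer RNAs of the mitochondrial genome were below input in both IPs, and 19 of these 20 were called higher in shRBM39. These RNAs are made and processed inside the organelle, apart from the nuclear splicing machinery. All 13 mRNAs were called higher with TMM and with total counts, with differences from 1.32 to 2.19 and a median of 1.52. In shControl their recoveries ran from -5.62 to -3.71 and in shRBM39 from -4.09 to -2.28, so all remained below input. MT-CO1, a subunit of cytochrome c oxidase, had 245748, 14820, 128440 and 22204 counts. MT-ND6, the mRNA coded on the light strand, had the largest difference of the group at 2.19 (2.12 to 2.26), with 28731, 2339, 20824 and 7021 counts.

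The mitochondrial mRNAs differed in where the change lay. MT-CO1 had an input ratio of -0.95 and an IP ratio of 0.71, so the input part was the larger in its 1.66. MT-ND2 had a higher input (0.37) and a still higher IP (2.17). MT-CO3, at 3971 and 3670 CPM in the inputs and 80.9 and 215 CPM in the IPs, changed almost wholly in the IP. Over the 13 the median input ratio was -0.11 and the median IP ratio 1.35. They made up 2.84% and 1.97% of the shControl and shRBM39 inputs, and 0.102% and 0.189% of the IPs.

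Of 7 mitochondrial tRNAs 6 were higher, with a median of 1.70. MT-TL2 led at 1.93 (1.51 to 2.35) on 269, 107, 188 and 260 counts, followed by MT-TR at 1.88. MT-TT was the exception at 0.87 (0.51 to 1.23), and with total counts MT-TG (1.18 with TMM) also fell short, leaving 5. Both ribosomal RNAs went the other way in size without a call. MT-RNR2 had 16591, 57791, 23993 and 51475 counts, a recovery of 0.73 in shControl and 0.17 in shRBM39, and a difference of -0.56 (-0.59 to -0.53). MT-RNR1 was at -0.21. The ribosomal RNAs were thus recovered near input level in both cultures while the mRNAs of the same genome were not. The nuclear pseudogene MTATP6P1, a copy of a mitochondrial gene, had 3960, 178, 2890 and 444 counts and a difference of 1.91, beside 1.43 for MT-ATP6, and its reads cannot be assigned with certainty.

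**Figure D4:**
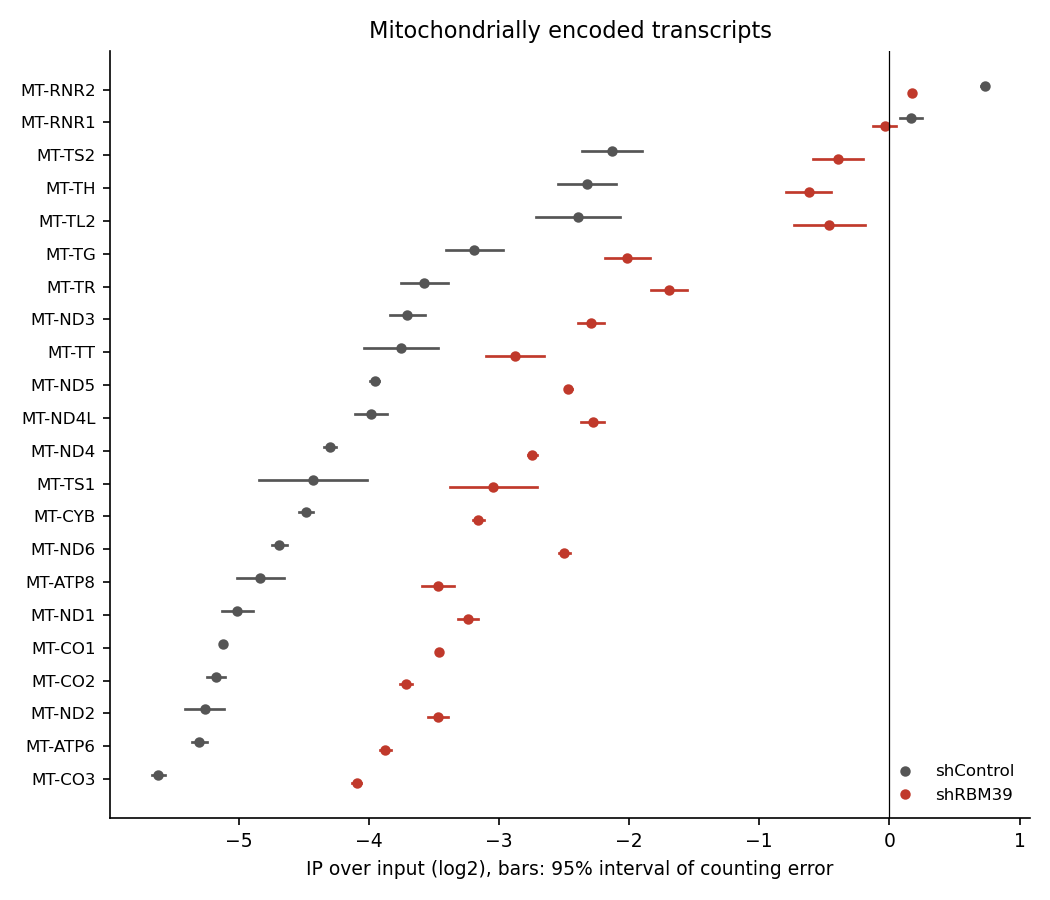
Recovery (IP over input, log2) of the 22 mitochondrially encoded transcripts in shControl (grey) and shRBM39 (red), with 95% intervals of counting error as bars. The mRNAs and tRNAs lie to the right in shRBM39 and stay below 0, and MT-RNR1 and MT-RNR2 lie near 0 and to the left in shRBM39.

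Genes of secreted and membrane proteins held several of the lower calls, and their list medians lay below that of all members. The mRNAs of such proteins are translated at the endoplasmic reticulum, where the growing chain is passed into the membrane or lumen. Over 8 lists with 349 members, 12 were called lower and 2 higher, the median was -0.28, and 261 lay below the median of all members. The background for lower calls was 0.78%. With total counts 27 were lower and 1 higher. The median input ratio of the group was -0.15 and the median IP ratio -0.43, and its share of counts was 5.25%, 4.21%, 4.69% and 2.45%. Low medians were not particular to these lists. Proteasome subunits were at -0.28, serine and folate enzymes at -0.24, tRNA synthetases at -0.23, and intermediate filament and lamin genes at -0.19. Within the group, solute carriers were at -0.17.

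Secreted liver proteins were the lowest list. Of 48 members 46 lay below the median of all members, 6 were called lower and 0 higher, and the median was -0.65. With total counts 14 were lower. The median input ratio of the list was -0.03 and the median IP ratio -0.63. ALB (albumin, chromosome 4, 73404287 to 73421482) had 63842, 88991, 48104 and 29767 counts. Its IP was 2.74 times lower in shRBM39 and its input 1.34 times lower. AFP, the fetal counterpart of albumin and its neighbour on the chromosome, had 57974, 98952, 88845 and 61062 counts. Its difference of -1.17 (-1.19 to -1.15) joined a higher input (0.60) to a lower IP (-0.57).

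The other called genes of this list were APOE (-1.12), an apolipoprotein, ITIH2 (-1.04), a hyaluronan-binding inhibitor chain, ORM2 (-1.06), an acute phase protein, and A1BG (-1.42). ITIH2 had an input ratio of 0.01 and an IP ratio of -1.03, so its change lay wholly in the IP. A1BG rests on 57 to 284 counts, with an interval of -2.03 to -0.80. Transferrin (TF, -0.95), fibrinogen beta (FGB, -0.92) and GPC3 (-0.97), an oncofetal proteoglycan listed as a hepatocyte marker, came near 2-fold. Exceptions were APOA2 at 0.21, whose input and IP were both far lower in shRBM39 at -1.96 and -1.75, and F12 at 0.51 (-0.09 to 1.12). APOB, the longest of these messages, was at -0.39 and had low recovery in both cultures (-1.46 and -1.85). The summed level of the 10 hepatocyte markers, several of them in this list, was 14143, 11890, 15794 and 12263 CPM, and its part in the result was not tested. The sum joins opposite changes. From the shControl IP to the shRBM39 IP, KRT8 went from 105134 to 234290 counts, and KRT18, HNF4A and TTR also rose. ALB went from 88991 to 29767 counts, and AFP, APOA1, APOB, SERPINA1 and GPC3 also fell. In bulk RNA, fewer cells with a message and less of it per cell cannot be told apart. Hepatocyte transcription factors, whose products stay in the cell, had a median of 0.07 over 17 members and no call.

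Lysosomal genes were next. Of 33 members 30 lay below the median of all members, and 2 were called lower, with the protease CTSC at -1.09. The list median was -0.49. PSAP, the precursor of saposins, had 6139, 11977, 5765 and 5226 counts and a difference of -0.97 (-1.04 to -0.90). LIPA, the lysosomal lipase, was at -0.82 on 61 to 154 counts. Of 26 cholesterol synthesis genes 2 were called lower. ACAT2, a cytosolic thiolase of the pathway, was at -1.09 and went from 2.06 times input to 0.963 times. The median over the 26 was -0.32.

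Endoplasmic reticulum chaperones had no call among 24 members, with a median of -0.32 and HSPA5 (BiP) lowest at -0.83. The signal recognition, translocon and glycosylation genes (31 members) had a median of -0.20, the 157 solute carriers -0.17, the 20 matrix genes -0.22 and the 11 integrin subunits -0.23. Of the solute carriers SLC22A5 (-1.08) and SLC41A3 (-1.01) were lower and SLC44A3 (1.05) was higher. SLC44A3 lost its call with total counts (0.85) and with a pseudocount of 5, and SLC41A3 with a pseudocount of 5 (-0.99). The matrix list held COL1A2 at -0.97 and the other higher call of the 8 lists, FBN1 at 1.19 (0.52 to 1.87), on 50 to 172 counts. Among integrins, the surface receptors for matrix, ITGAV was lowest at -0.63, and ITGB1 was at -0.27 from low recoveries of -1.47 and -1.73.

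Some membrane and endoplasmic reticulum genes outside the lists were called lower. They were named after their values were seen, and such genes were not counted over all members, so they are examples alone. They include POR, the electron donor of cytochromes P450 (-1.29), ESYT1, a membrane tether (-1.19), GANAB, a glucosidase of glycoprotein folding (-1.08), EMC1, of a membrane insertion complex (-1.08), MAN1B1, a mannosidase (-1.04), and SPTLC1, of sphingolipid synthesis (-1.04). POR had 821, 4579, 1349 and 2786 counts and passed from a recovery of 1.41 to 0.12. EMC1 had nearly equal inputs (ratio -0.04) and an IP ratio of -1.11. PEX3, a peroxisome assembly protein, had 237, 940, 442 and 634 counts and a difference of -1.33 (-1.60 to -1.06). PRNP, the prion protein, had the largest fall of the IP among the lower calls, -3.19, beside an input ratio of -1.81. Its 4 counts were 445, 760, 128 and 76.

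In several lower members the input was higher in shRBM39 and the IP was higher by less. AADAC, a deacetylase of the endoplasmic reticulum, had 110, 187, 388 and 216 counts, so its input was 3.48 times higher and its IP 1.26 times higher. CES1, a liver carboxylesterase, had an input ratio of 1.84 and an IP ratio of 0.65. ABCB1, the multidrug transporter, had ratios of 1.34 and 0.10. SAA1, an acute phase protein, had 58, 180, 377 and 506 counts, and its input was 6.39 times higher and its IP 3.06 times higher. HIST3H2A (current symbol H2AC25), a histone gene outside the main clusters, had an input ratio of 1.43 and a difference of -1.17.

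Some lower members encode proteins of other compartments. LARS2, the mitochondrial leucyl-tRNA synthetase, had 357, 1830, 696 and 1224 counts. Its recovery went from 1.29 to -0.11, a difference of -1.40 (-1.61 to -1.19), with an input ratio of 0.95 and an IP ratio of -0.45. YARS2, the mitochondrial tyrosine enzyme, was at -1.06, entirely through the input (1.15). The list of 36 tRNA synthetases had a median of -0.23, with the cytosolic VARS at -0.85 and IARS at -0.79. RBX1, the RING subunit of cullin ubiquitin ligases, was at -1.35, while the 28 genes of that list had a median of -0.04. The 36 proteasome subunits had a median of -0.28 and 0 calls, with PSMA4 (-0.91) and PSMA5 (-0.90) lowest; both passed 2-fold with total counts. TTC30A, an intraflagellar transport gene, was at -1.36 and its close copy TTC30B at -1.14, and reads of the pair may not be separable.

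**Figure D5:**
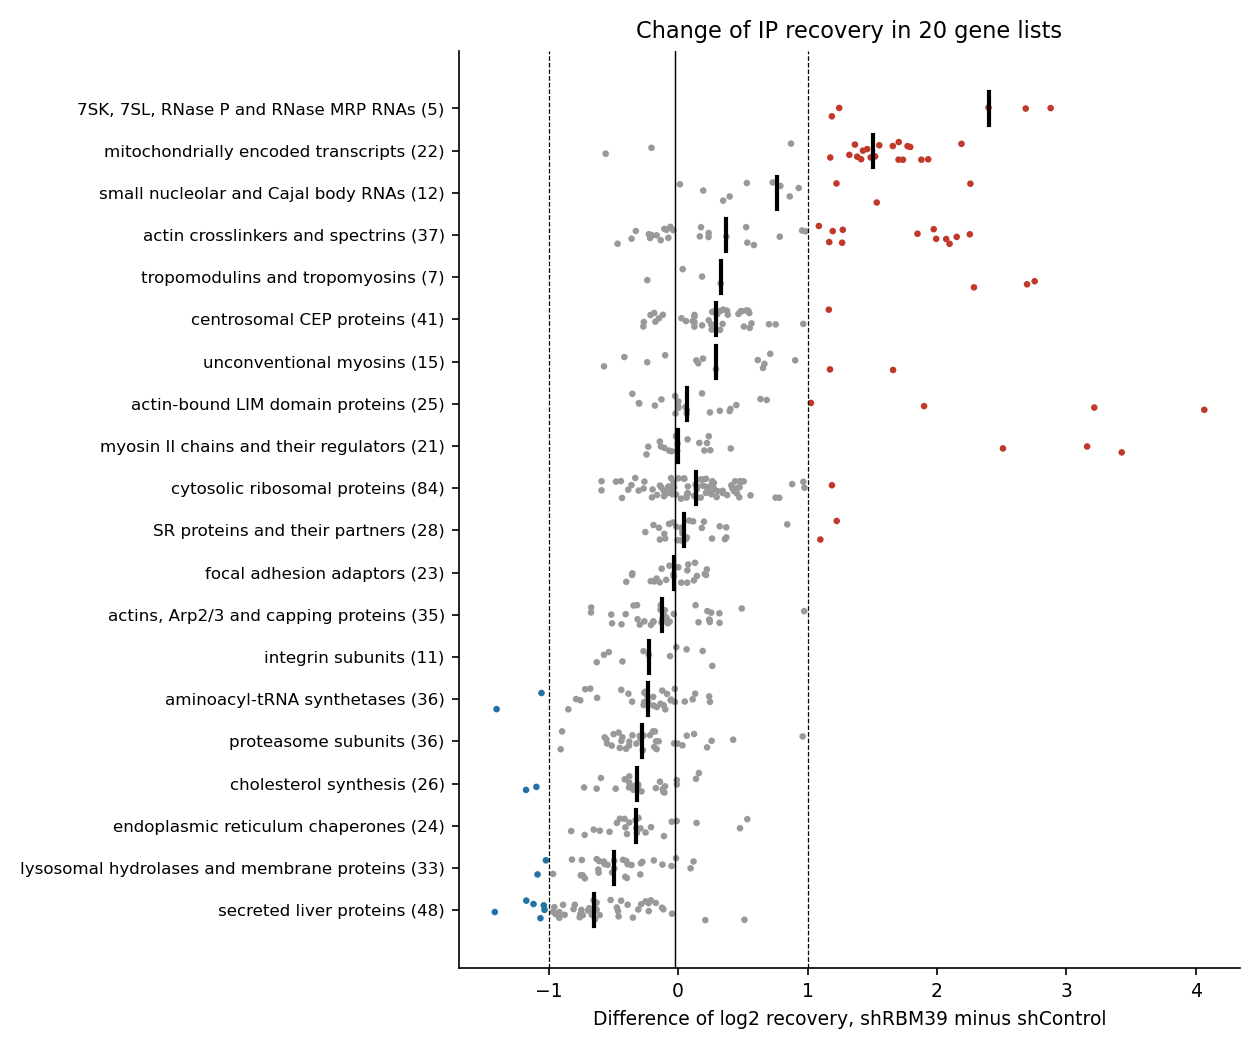
Difference of log2 recovery (shRBM39 minus shControl) of every member of 20 gene lists, with the list size in brackets, called members in red or blue, list medians as thick bars, the median of all members as a thin line and 2-fold as dashed lines. The members of the list of 5 polymerase III RNAs and all mitochondrial mRNAs lie to the right, the actin-related lists reach far right through a minority of members, and the medians of the secreted liver protein and lysosomal lists lie to the left.

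Splicing factors, the class to which RBM39 belongs, were mostly level. RBM39 mRNA itself was at 1.23 (1.18 to 1.27), with an IP ratio of 1.10 beside the input ratio of -0.13 given above. SF3B1, a core U2 snRNP protein, had 2106, 15766, 4196 and 65402 counts. It was above input at 1.84 in shControl and 3.03 in shRBM39, a difference of 1.20, and its input ratio was 0.98. These were among only 4 calls, all higher, in the 289 members that were at least 2-fold above input in both cultures. The other 13 U2 snRNP genes lay between -0.25 and 0.48, with SF3B3 highest. CLK4, a kinase of SR proteins, was called at 1.10 and lost its call with total counts. SR proteins and their partners (28 members) had a median of 0.05, hnRNP proteins (37) 0.08, other numbered RBM genes (31) 0.13 and helicases of the DEAD and DEAH box families (49) -0.00. The hnRNP calls were the pseudogenes HNRNPCP1, which lost its call with total counts (0.91), and HNRNPCP2, and both can share reads with HNRNPC.

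RFX1, the transcription factor in the series title, had a difference of 0.48 (-0.08 to 1.03), not detectable at its 55 to 319 counts. Its interval includes 2-fold. The 7 genes of the RFX list had a median of 0.26 and no call. Of members with high recovery in both cultures, CEP152, a centriole protein, had 710, 21121, 1004 and 44096 counts and a difference of 0.70, NDUFS1, of complex I, had 0.09 (0.02 to 0.16), AGO2 had 0.08 (-0.04 to 0.19), and SMARCC2 had 0.27.

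Other nuclear and RNA-related genes, most of them outside the lists, were called higher from negative recoveries in shControl. ESF1, of ribosome biogenesis, had 5203, 2674, 5976 and 8466 counts and rose from -2.03 to -0.43. ZC3H13, of the m6A writer complex, was at 1.22, CDC5L, of the spliceosome, at 1.21, SFPQ, a paraspeckle protein, at 1.07, and EIF5B, an initiation factor, at 1.16. Each of these 5 had a higher IP and a higher input in shRBM39. YBX1, an abundant RNA-binding protein, had 85102, 50858, 58940 and 64660 counts, with a lower input (-0.54) and a higher IP (0.47). FTH1, the ferritin heavy chain, was at 1.20 with BEST1, which overlaps it and carries much the same counts, at 1.21. ASPM, a spindle pole protein, was at 1.23, and CEP295 at 1.16 as the called member of 41 centrosomal CEP genes (median 0.29). With total counts EIF5B and CEP295 lost their calls, each at 0.97, and SFPQ and YBX1 also fell under 2-fold.

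The ribosome lists moved little. Cytosolic ribosomal proteins (84 members) had a median of 0.14, which changed sign with total counts, and 1 call, RPL41 at 1.19, with an IP ratio of 0.38 and an input ratio of -0.81, which lost its call with total counts. Mitochondrial ribosomal proteins (78) had a median of -0.13 and complex I subunits encoded in the nucleus (38) 0.10, with 0 calls each, beside the differences of the mitochondrially encoded subunits above. The 386 zinc finger ZNF genes had 4 higher calls, 2 with total counts, and a median of 0.06. Gene groups of the stress and growth responses had no call: immediate early genes (17, median 0.05), ATF4 pathway genes (20, -0.22), serine and folate enzymes (21, -0.24, PHGDH lowest at -0.81), replication licensing genes (23, -0.07) and p53 targets (13, -0.15). In all, 24 of 51 lists had no call with TMM. The sign of a list median close to 0 depends on the scaling: 26 list medians were above 0 with TMM and 11 with total counts.

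The calls were unevenly spread over kinds of features and over depth. Of 10943 protein-coding members 95 were higher (0.868%) and 74 lower (0.676%). Of 98 features annotated as pseudogenes 14 were higher (14.3%), with a median of 0.31. Several of the 14, such as EEF1A1P5 (1.61) and YBX1P1 (1.53), are copies of abundant mRNAs. Another 114 features, annotated as transcribed pseudogenes, had 0 higher and 0 lower calls and a median of 0.06. The 1396 features without a symbol match held 53 higher and 23 lower calls. In 5 equal bins of mean count, higher calls numbered 65, 27, 18, 16 and 55 from the shallowest to the deepest, and lower calls 51, 21, 13, 7 and 9. The median half-width of the interval was 0.50 in the shallowest bin and 0.088 in the deepest, so the higher calls of the deepest bin lie far outside counting error. In 5 equal bins of the annotated gene span, a grouping chosen after the values were seen, higher calls numbered 40, 11, 14, 24 and 39 from the shortest to the longest, and lower calls 20, 20, 16, 14 and 8.

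Just inside the count minimum, 454 members with a lowest count of 50 to 59 had a median difference of 0.05, with 23 higher and 15 lower (8.37%). Just outside, 522 features with a lowest count of 40 to 49 had a median of 0.03, with 34 higher and 24 lower (11.1%). Of the 128 higher members with a position, 36 overlapped another member and 6 another higher one. Of the 78 lower ones 11 overlapped another member. The share over all members is not given here, so these counts cannot be read as many or few. Over chromosomes with at least 100 members the median ran from -0.06 (chromosome 22) to 0.04 (chromosome 15).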

How the data were processed

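RNA immunoprecipitation with an RBM39 antibody and input RNA were sequenced in Huh7 cells. The authors deposited 1 table of raw counts per gene symbol, whole numbers without normalization, and all 4 columns matched a sample by name. The genome build hg38 and the tools HISAT2 2.0.4, cutadapt 1.9 and StringTie 1.3.4d are named in the submitters' processing notes. How reads were counted, with which annotation and strand, is not given in the sources used here, so overlapping or antisense genes can share reads. Of the deposited counts from 3 to 6, 71.4% to 75.6% were even; if both mates of a pair were counted, the intervals are too narrow. The labels name no molecular identifiers, so PCR copies may be counted as separate molecules, and the intervals hold counting error alone.

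Libraries were scaled with TMM (edgeR 4.0.16, R 4.3.3), with factors of 1.03, 1.09, 0.979 and 0.904. A value of 0.5 was added to each count, log2 ratios were taken, and the 95% interval came from the summed inverse counts (Python 3.11.15). The script was tested on simulated data. An edgeR interaction of culture and fraction has 0 residual degrees of freedom here. Symbols and positions are from RefSeq on GRCh38.p14: 10942 members matched a current and 619 an older symbol (89.2%). Another 6 members carry numbers in place of names and are not named.

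The members and the 51 gene lists were chosen with earlier results of these data known. Genes were named by a rule: RBM39, RFX1, the 15 highest and 15 lowest members with a symbol by the interval bound nearer to 0, and up to 4 per list and per recovery class by size. Other genes, such as the remaining myosin light chains, spectrins, filamins, plakins, tropomyosins and the genes outside the lists, were named after their values were seen. Scaling, count minimum, pseudocount and symbol matching were varied. Protein sequence groups were not analysed here. Some called genes are not reported here.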

Additional observations from a re-analysis of the deposited data

Results flagged for a closer look

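TMOD2, a tropomodulin, was the 1 member whose recovery was at least 2-fold below input in shControl and at least 2-fold above input in shRBM39, with a difference of 2.70 on 58 to 304 counts per library. The difference was not tested, since each group has 1 library.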

How the results depend on the processing

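No paired analysis was possible because each group has 1 library, and for the same reason no library could be left out. Groups by protein N-terminus and protein length were not run, because no protein sequences were used here. With total counts 104 members were higher and 250 lower in place of 181 and 101, and the recovery classes (shControl to shRBM39) above to between, below to between, between to above and between to below held 1007, 260, 76 and 553 in place of 620, 474, 184 and 314. A count minimum of 20 gave 345 higher and 216 lower, 100 gave 60 lower, 200 gave 98 and 33, and 10 counts in at least 2 libraries gave 843 and 526. DESeq2 1.42.0 size factors (178 and 103), TMM on the members alone (160 and 113), TMM without mitochondrial and small RNAs (151 and 125), a pseudocount of 5 (170 and 91), symbol-matched members only (128 and 78) and differences taken from the median (199 and 88) stayed within 1.5 times. Counts divided by 2 for the interval gave 181 and 101. That outcome was nearly fixed in advance, because the 2-fold threshold set the calls, so it does not show how doubled counts would matter. Of 219 genes named by the rule, 190 kept their side of the threshold with total counts, 18 passed it and 11 lost it; 2 lost it with a pseudocount of 5 and 0 with DESeq2 size factors. In the shallowest of 5 bins of mean count the interval spans 0.50 to either side at the median, so smaller differences were not detectable there.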
